A study of Mus musculus with 2 samples.

Results

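The enzymes of fatty acid beta oxidation were examined in pancreatic islets of PERK wild-type and PERK knockout mice. The members were the 10 genes Cpt1a, Cpt2, Acadvl, Acadl, Acadm, Hadh, Hadha, Hadhb, Acaa2 and Acaa1a, of 12393 genes named on the array, and every probe set carrying 1 of these symbols was taken. That gave 20 probe sets with a member's symbol alone and 2 more whose symbol is shared by Acaa1a and its close paralogue Acaa1b. Each probe set is a group of short oligonucleotides designed against 1 transcript, and its signal is given in arbitrary intensity units.

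The series holds 1 Affymetrix mouse 430A array per genotype. Both genotypes were sampled 2 days after birth, and islets were freed from the pancreas with collagenase P. Strain and gender are labelled as mixed for the wild type. The strain and sex of the knockout mice, the exons removed and any pooling of pups are not given in the sources consulted. The Eif2ak3 gene encodes PERK, an endoplasmic reticulum kinase that slows translation when unfolded protein builds up. Its signal was 117.7 in wild-type islets and 58.7 in knockout islets on the 1 probe set that exceeded the floor, 2.01-fold lower, and whether that probe set lies in the deleted part is not known here. With 1 array per genotype there are no replicates, so no test was possible and each ratio compares these 2 libraries. The only error available is the disagreement between probe sets of the same gene, an SD of 0.26 on the log2 scale over 2597 genes (0.20 in the brightest 25% of them). It leaves out differences between animals, litters and RNA preparations.

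Beta oxidation shortens fatty acids inside mitochondria by removing acetyl units from the carboxyl end in a repeating cycle. Long chains enter as carnitine esters, and each turn then runs through an acyl-CoA dehydrogenase, a hydratase, a 3-hydroxyacyl-CoA dehydrogenase and a thiolase. Peroxisomes hold a parallel pathway for very long chains. In beta cells, the short-chain 3-hydroxyacyl-CoA dehydrogenase encoded by Hadh is also known for binding and inhibiting glutamate dehydrogenase, and its loss causes a form of congenital hyperinsulinism.

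Most of the enzymes had nearly the same signal in both libraries, and Hadh and Acaa1a stood apart in opposite directions. Hadh was lower in the knockout on both of its probe sets that could be measured on both arrays, by 1.35-fold and 1.65-fold. Acaa1a, the peroxisomal thiolase, was 2.79-fold and 1.65-fold higher on its own probe sets, while the 2 probe sets shared with Acaa1b were 1.08-fold lower. The other 8 genes had log2 ratios of knockout over wild type between -0.23 and 0.35, of which 7 lay within 1 SD of probe set disagreement (0.26) of 0 and 5 within the SD of the brightest 25% of genes (0.20). These 8 leave out the members with the lowest and the highest ratio. Of all 10 members 7 lay within 0.26 of 0, against 63.1% of all measured genes, so a level signal was not particular to these enzymes.

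Promoter sequences are shown for the genes with the largest differences (Hadh, Acaa1a and Cpt1a) and for the gene pair of the trifunctional protein whose windows overlap. They are the 250 bases before the transcription start in RefSeq on GRCm38.p6, written 5′ to 3′ on the gene's strand, with matches to the searched motifs in capitals. Promoters were found for 9 of the 10 genes, all but Acaa2. The regions are chr3:131272102-131272351 (minus strand) for Hadh, chr9:119341044-119341293 (plus strand) for Acaa1a, chr19:3323051-3323300 (plus strand) for Cpt1a, chr5:30154981-30155230 (minus strand) for Hadha and chr5:30155003-30155252 (plus strand) for Hadhb.
Hadh: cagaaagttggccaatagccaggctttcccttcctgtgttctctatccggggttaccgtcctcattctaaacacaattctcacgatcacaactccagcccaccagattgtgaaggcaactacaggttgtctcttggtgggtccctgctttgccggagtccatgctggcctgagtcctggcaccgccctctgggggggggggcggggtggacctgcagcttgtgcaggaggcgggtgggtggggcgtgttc
Acaa1a: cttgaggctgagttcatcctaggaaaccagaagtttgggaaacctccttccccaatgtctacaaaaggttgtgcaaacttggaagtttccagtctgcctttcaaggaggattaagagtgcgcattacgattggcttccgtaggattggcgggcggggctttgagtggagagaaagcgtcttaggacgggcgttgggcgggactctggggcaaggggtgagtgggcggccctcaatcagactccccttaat
Cpt1a: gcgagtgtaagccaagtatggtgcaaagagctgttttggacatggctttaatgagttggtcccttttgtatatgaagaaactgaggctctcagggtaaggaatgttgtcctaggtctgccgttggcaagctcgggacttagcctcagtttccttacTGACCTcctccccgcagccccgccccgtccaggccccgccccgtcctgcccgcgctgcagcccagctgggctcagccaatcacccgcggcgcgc
Hadha: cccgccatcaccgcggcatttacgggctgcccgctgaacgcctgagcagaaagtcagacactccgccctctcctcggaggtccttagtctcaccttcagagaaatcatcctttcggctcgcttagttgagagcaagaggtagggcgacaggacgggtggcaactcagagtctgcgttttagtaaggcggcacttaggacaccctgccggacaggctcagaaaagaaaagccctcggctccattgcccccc
Hadhb: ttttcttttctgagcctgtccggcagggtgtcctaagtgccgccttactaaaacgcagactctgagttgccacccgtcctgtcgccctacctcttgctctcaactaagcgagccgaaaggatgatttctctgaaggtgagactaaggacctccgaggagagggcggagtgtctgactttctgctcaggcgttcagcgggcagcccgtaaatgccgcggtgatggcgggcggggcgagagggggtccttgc

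The Hadha and Hadhb windows face away from each other on opposite strands and share 228 bases, so the genes of both subunits start from 1 common stretch. Both strands were searched for AGGTCA, the hexamer bound by many nuclear receptors, for the PPAR direct repeat, which is that hexamer written again after 1 base of any kind and so contains it, and for TGTTTAC, a forkhead motif. The full repeat was in 0 of the 9 promoters, against 0.0335% of all 32851 promoter windows. The single hexamer was in 3 of the 9, those of Cpt1a, Acadm and Acadvl, against 14% of all windows. In Cpt1a it begins 94 bases before the start, on the opposite strand. The forkhead motif was in 0 of the 9, against 3.17% of all windows. A match is a description of the letters only, and a missing match says nothing about a factor.

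All 10 genes were measured on both arrays, which here means that the brightest probe set of the gene exceeded a floor of 39.8, the 40th percentile of all signals. Of the 20 probe sets with a single symbol, 17 were measured, 1 was at the floor in the wild type and 2 lay under the floor on each array. The median log2 ratio of the 10 genes was 0.03, equal to 2 decimals to the median of all 8133 measured genes (0.03). Of the 10, 5 lay above equality and 5 below, and 45.1% of all measured genes lay below. With both arrays set to equal medians 4 lay above and 6 below, and Hadha changed side. With quantile or loess scaling Acadvl changed side.

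At the 2-fold limit, 1 of the 10 genes was higher (Acaa1a) and 0 were lower, against 0.516% of all measured genes higher and 0.652% lower. The count for Acaa1a rests on a probe set of its symbol alone. Those shared with Acaa1b were 1.08-fold lower. At the 1.5-fold limit the counts were again 1 higher and 0 lower, against 4.19% and 2.95%. Without probe sets of the _x_at, _s_at and _a_at types this split was reversed, with 0 higher and 1 lower (Hadh) of 9 measured. Over single-gene probe sets, 1 of the 17 measured was at least 2-fold higher and 0 at least 2-fold lower, against 0.454% and 0.572% of 11893. At the lower limit 2 of the 17 measured were at least 1.5-fold higher, against 4.21%, and 1 was at least 1.5-fold lower, against 2.82%. The pair of higher ones belonged to Acaa1a and the lower one was of Hadh.

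**Figure D1:**
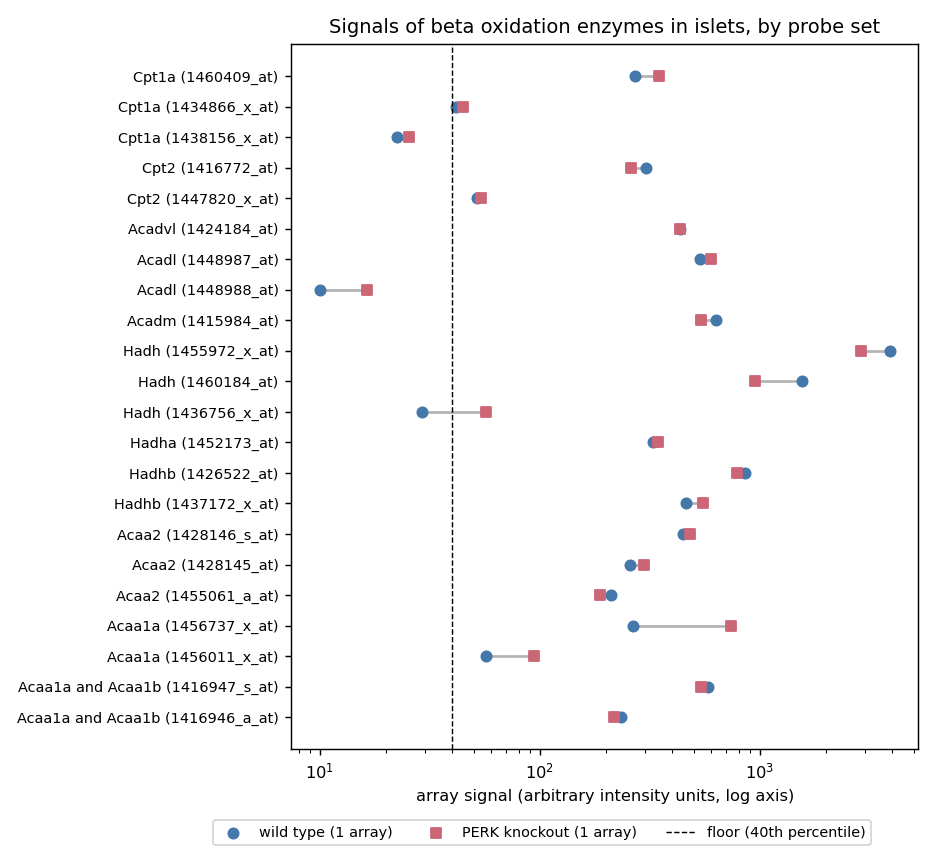
Array signal (arbitrary intensity units, log axis) of the 22 probe sets of the 10 genes, with circles for the wild-type array, squares for the knockout array and a dashed line at the floor of 39.8. Among probe sets above the floor on both arrays, the gaps are widest to the left for the Hadh probe sets at 3902 and 1559 in the wild type and to the right for the Acaa1a probe set at 266.4; signals of different probe sets are not comparable with each other.

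Hadh was the member with the lowest ratio. Its brightest probe set (1455972_x_at) read 3902 in wild-type islets and 2896 in knockout islets, a log2 ratio of -0.43. A second one (1460184_at) had 1559 and 946.8, a log2 ratio of -0.72. Both were lower in the knockout by more than the SD of probe set disagreement, and they differed from each other by 0.29. The third probe set (1436756_x_at) had 29.1 in the wild type, under the floor, and 56.8 in the knockout. It ran the other way, at least 1.43-fold higher, at signals close to the floor.

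On its brightest probe set, the Hadh ratio was not rare among all genes. Of the 8133 measured genes, 505 (6.21%) had a log2 ratio at or below -0.43. Among the 814 genes in the brightest 10%, a set chosen after the values were seen, 38 (4.67%) did, and the median of that set was -0.04. The signal of 3902 was 48.0% of the highest signal on the wild-type array. This place depends on the probe set, since the brightest one is of the _x_at type and had the smaller difference. The second probe set was 1.65-fold lower, and 2.82% of measured single-gene probe sets were at least 1.5-fold lower.

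Markers of beta cells were lower alongside Hadh. Of 6 measured beta cell markers, 5 lay below equality, with a median log2 ratio of -0.46. Their summed signal was 16479 in wild-type islets and 14832 in knockout islets, most of it from Ins2 and Iapp, without which it was 4117 and 2519. The glucose transporter Slc2a2 was 1.85-fold lower and the glucose-6-phosphatase subunit G6pc2 was 1.66-fold lower, while Ins2, the insulin gene named here, had a log2 ratio of 0.12 and Iapp, amylin, of -0.13. Ins2 and Iapp had wild-type signals of 5652 and 6710, on an array with a maximum of 8132.9. Their ability to show a difference at such high signals was not tested. Whether fewer beta cells or less Hadh RNA per cell lay behind the lower signal cannot be told apart in whole islets. That Hadh is enriched in beta cells was not checked here, since both arrays hold all islet cell types together. The part of the beta cell markers in the Hadh ratio was not tested.

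The other genes tied to congenital hyperinsulinism or to the Hadh protein had smaller differences. Of 8 measured, Hadh included, 3 were below equality and 5 above, with a median of 0.05, and none was 1.5-fold apart. Without probe sets of the _x_at, _s_at and _a_at types, 1 of 5 measured, Hadh itself, was at least 1.5-fold lower. Among all measured genes 4.19% were at least 1.5-fold higher and 2.95% at least 1.5-fold lower. The median was -0.05 with equal medians of the arrays. Glud1, the glutamate dehydrogenase that the Hadh protein binds, had 872.4 in wild-type islets and 1049 in knockout islets (log2 0.27, and 0.35 on its other probe set), so its direction was opposite to that of Hadh on both. Abcc8, the sulphonylurea receptor subunit of the KATP channel, had a log2 ratio of -0.25, and Cacna1d, a calcium channel subunit, of -0.28. Foxa2, a forkhead factor of the pancreas, had 0.12, the hexokinase Hk1 had 0.14 and phosphoglucomutase Pgm1 had 0.08. Hnf4a had 0.02 on its brightest probe set and -0.09 and 0.21 on the others. Kcnj11, the pore subunit of the KATP channel, and the lactate transporter Slc16a1 did not exceed the floor on either array.

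Entry of long chains into mitochondria is controlled by the carnitine palmitoyltransferases. Cpt1a, on the outer membrane, makes the carnitine ester and is held to be the main control point of the pathway. Its brightest probe set (1460409_at) had 271.6 in wild-type islets and 346.3 in knockout islets, 1.28-fold higher. Another (1434866_x_at) had 41.6 and 44.6, just above the floor, and the last (1438156_x_at) was at the floor on both with 22.5 and 25.5. The knockout signal was the higher on both measured ones, with log2 ratios of 0.35 and 0.10, of which the first exceeded the SD of probe set disagreement. Cpt2, the inner membrane enzyme that turns the ester back into acyl-CoA, had 303.5 and 260.6 on its brightest probe set (log2 -0.22). Its second probe set had 51.9 and 54.1 (log2 0.06), so its direction depended on the probe set and both values lay within 0.26 of 0.

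The acyl-CoA dehydrogenases, which start each turn of the cycle and differ in the chain length they accept, were close to level. Acadvl, for very long chains, had 435.1 in wild-type islets and 433.7 in knockout islets (log2 -0.00). Acadl, for long chains, had 535.5 and 599.3 (log2 0.16), and its other probe set was at the floor on both arrays with 10 and 16.4. Acadm, for medium chains, had 629.8 and 538.2 (log2 -0.23, 1.17-fold lower). All of these lay within 0.26 of 0, Acadm outside 0.20, and Acadvl and Acadm rest on 1 probe set each.

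The mitochondrial trifunctional protein joins the hydratase, long-chain 3-hydroxyacyl-CoA dehydrogenase and thiolase steps in 1 complex. Hadha encodes its alpha subunit and had 327.2 in wild-type islets and 342.7 in knockout islets (log2 0.07, and -0.03 with equal medians). Hadhb encodes the beta subunit, with the thiolase activity, and had 856.0 and 790.5 on its brightest probe set (log2 -0.11). On its second one Hadhb had 460.6 and 549.7 (log2 0.26). The genes share the start region printed above. The Hadha value and both Hadhb values lay within 1 SD of 0, and those of Hadhb were on opposite sides of it.

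The thiolases close the cycle by releasing acetyl-CoA. Acaa2, the mitochondrial enzyme for shorter chains, had 445.1 in wild-type islets and 479.0 in knockout islets on its brightest probe set (log2 0.11). Its other probe sets had 257.2 and 295.9 (log2 0.20) and 209.5 and 188.4 (log2 -0.15). These values scatter around equality within 1 SD.

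Acaa1a had the highest ratio of the members, and its probe sets measured on both arrays lay further apart than those of any other member. On 1456737_x_at it had 266.4 in wild-type islets and 743.1 in knockout islets, a log2 ratio of 1.48, and only 7 of the 8133 measured genes, itself included, had a ratio as high. On 1456011_x_at it had 56.9 and 93.7, a log2 ratio of 0.72. Both were higher in the knockout and differed from each other by 0.76. Probe sets with the ending _x_at can hold probes that also match other transcripts. Both probe sets of Acaa1a alone are of this type, and the gene had no value without them.

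The probe sets shared by Acaa1a and Acaa1b showed no such difference. 1416947_s_at had 582.7 in wild-type islets and 538.2 in knockout islets (log2 -0.11). 1416946_a_at had 233.9 and 216.6 (log2 -0.11). The probe set of Acaa1b alone was at the floor on both arrays, with 11.0 and 17.1. In the platform annotation both shared probe sets carry a RefSeq transcript record, and the probe sets of Acaa1a alone carry other sequence records. Probe sets annotated to Acaa1a therefore disagreed in direction, and the deposited values do not settle the level of its transcript. Across all genes, 1.58% of 2597 pairs of probe sets of a gene differed by at least 1 on the log2 scale.

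**Figure D2:**
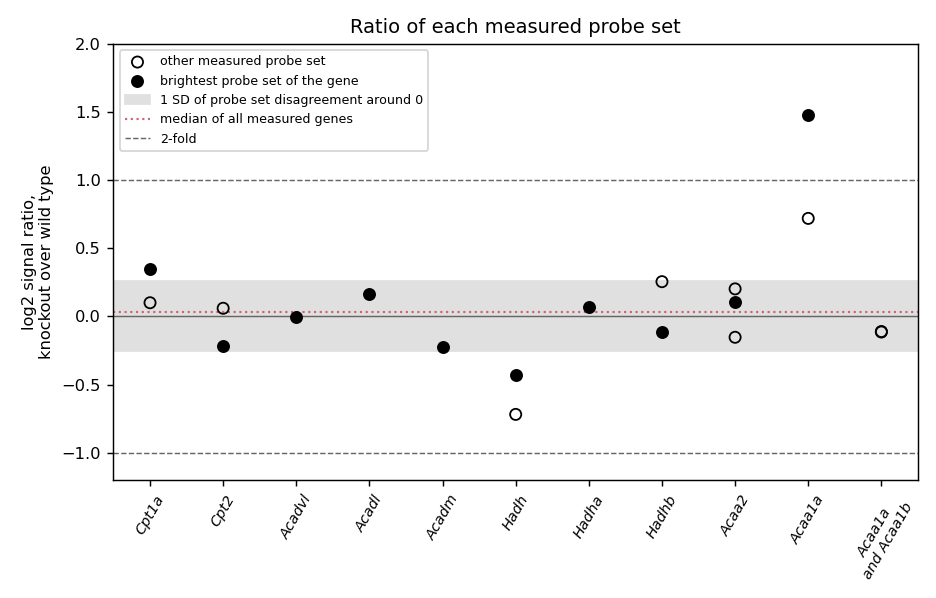
The log2 signal ratio of knockout over wild type for each probe set measured on both arrays, with filled circles for the brightest probe set of a gene, open circles for the others, a grey band for 1 SD of probe set disagreement (0.26) and a dotted line at the median of all measured genes (0.03). Hadh lies below the band with both probe sets (-0.43 and -0.72), Acaa1a above it (1.48 and 0.72), and the shared Acaa1a and Acaa1b probe sets inside it.

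**Figure D3:**
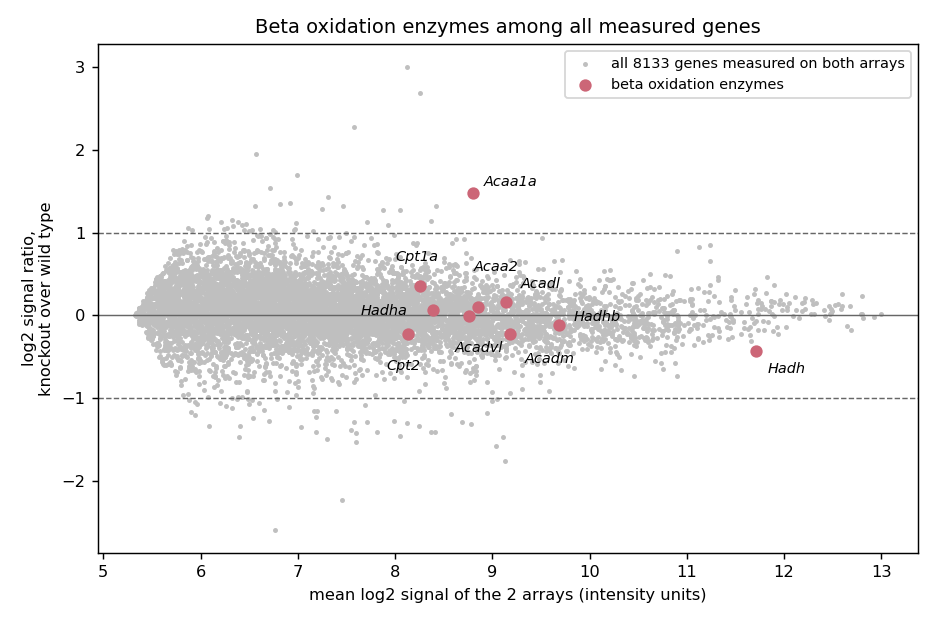
The log2 signal ratio against the mean log2 signal of both arrays for the 8133 measured genes (grey), with the 10 enzymes in colour and dashed lines at 2-fold. Acaa1a, at 1.48 on a probe set of its symbol alone, is the enzyme beyond the 2-fold lines, and Hadh, at -0.43, sits on the low side among bright genes. The probe sets shared by Acaa1a and Acaa1b are not drawn.

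Genes listed as other enzymes of mitochondrial fatty acid oxidation were also near level. The list is broader than the beta oxidation cycle and takes in genes, such as Gcdh, that are not steps of it. Of 24 listed, 22 were named on the array by a probe set of their own and 20 were measured, of which 13 lay below equality and 7 above, with a median of -0.06 (-0.09 with the 1 gene that had only a bound). None was at least 1.5-fold higher and 1 measured gene was at least 1.5-fold lower, against 4.19% and 2.95% of all measured genes. Gcdh, the glutaryl-CoA dehydrogenase, named after its values were seen, had 75.2 in wild-type islets and 26.8, under the floor, in knockout islets, at least 1.89-fold lower. The measured gene was Acad11, an acyl-CoA dehydrogenase, with 130.9 in wild-type islets and 76.5 in knockout islets (log2 -0.77), and its second probe set gave -0.08. Etfb, a subunit of the flavoprotein that takes electrons from the dehydrogenases, had a log2 ratio of -0.15, and the acetyl-CoA thiolase Acat1 had -0.11, with -0.46 and 0.25 on its other probe sets. Slc25a20, the carnitine-acylcarnitine carrier that works between Cpt1a and Cpt2, was named after its values were seen and had 282.4 and 352.3 (log2 0.32, and 0.19 on its second probe set).

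Peroxisomal genes, the setting of Acaa1a, showed few differences of size. Of 21 listed genes of peroxisomal oxidation, 19 had a probe set of their own, 6 were at the floor on both arrays and 13 were measured. Of these, 7 were above equality and 6 below, with a median of 0.02, which was -0.08 with equal medians and -0.00 with quantile normalization. Catalase (Cat), which removes the hydrogen peroxide made there, was 1.65-fold higher (95.2 to 157.5), with a log2 ratio of 0.38 on its second probe set. Catalase was the 1 measured gene of the list at least 1.5-fold higher, and 0 were lower, against 4.19% and 2.95% of all measured genes. Scp2, a thiolase and sterol carrier, had -0.32, with -0.09 and 0.26 on its other probe sets, and Phyh, the hydroxylase for branched chains, had 0.13. Ehhadh, a multifunctional enzyme before Acaa1a in the cycle, was at the floor on both arrays. Hsd17b4, another multifunctional enzyme of the list, was named after its values were seen. It had 141.5 in wild-type islets and 165.2 in knockout islets (log2 0.22, and -0.19 on its second probe set).

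Of 11 measured peroxisome biogenesis genes, 6 were above equality, with a median of 0.03 (-0.07 with equal medians, and -0.00 with quantile and -0.02 with loess scaling). Pex11a, which promotes peroxisome division, had 81.1 in wild-type islets and 140.1 in knockout islets (1.73-fold higher), and its second probe set gave a log2 ratio of 0.82. Both of its probe sets were therefore higher. Pex7 and Pex2, import factors, had log2 ratios of -0.21 and -0.22.

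Genes of fatty acid uptake and activation had a median of 0.13 over 17 measured (0.15 with the 1 gene that had only a bound), with 10 above equality and 7 below. At least 1.5-fold higher were 2 and lower were 0, against 4.19% and 2.95% of all measured genes. Acot1, a cytosolic acyl-CoA thioesterase, had 78.9 in wild-type islets and 149.9 in knockout islets (1.90-fold higher), and a probe set shared by Acot1 and Acot2 had 189.0 and 286.2 (log2 0.60). Cd36, a fatty acid receptor also made by macrophages and endothelium, was 1.59-fold higher, with a log2 ratio of 0.15 on its second probe set. Fabp5, a fatty acid binding protein, had 0.02. Dbi, which binds acyl-CoA, had -0.17, with a range of -0.84 to 0.68 on its other probe sets.

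Ketone body enzymes had the lowest median of the 7 related lists. All 3 measured were below equality, with a median of -0.64 (-0.39 when the median of each gene's probe sets was used). Oxct1, which starts the use of ketone bodies, had 531.3 in wild-type islets and 332.6 in knockout islets (1.60-fold lower), and its other 3 probe sets ranged from -0.54 to 0.30. Bdh1, the ketone body dehydrogenase, had 109.8 and 70.3 (1.56-fold lower) on its single probe set. The third was Acat1, given above.

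Measured PPAR regulators and targets had higher signals in the knockout. PPARs are nuclear receptors for fatty acids that drive beta oxidation genes. All 9 measured were above equality, with a median of 0.43 (0.41 with the 1 gene that had only a bound, Ucp3, lower in the knockout), against 0.03 for all measured genes; with equal medians of the arrays 8 of 9 were above, and Rxrb, a PPAR partner, was not. With the 25th percentile as floor 10 of 11 were above, and with a pseudocount in place of the floor 15 of 19, with a median of 0.25. With the median over probe sets all 9 were above, with a median of 0.30. Of all measured genes, 45.1% lay below equality. Lpin1 and Rxra, named after their values were seen, had 0.32 and 0.43 on their brightest probe sets and -0.03 and 0.16 on their second. The pyruvate dehydrogenase kinase Pdk4 had 286.2 in wild-type islets and 542.7 in knockout islets (1.90-fold higher) and was the 1 gene at least 1.5-fold apart. Among all measured genes 4.19% were at least 1.5-fold higher and 2.95% at least 1.5-fold lower. Txnip, a thioredoxin inhibitor, had 826.4 and 1079 (log2 0.38, and 0.16 on its second probe set), and the lipid droplet protein Plin2 had 355.0 and 506.8 (log2 0.51). The receptors Ppara, Ppard and Pparg and the coactivators Ppargc1a and Ppargc1b were under the floor in both libraries, so no ratio was obtained for them.

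**Figure D4:**
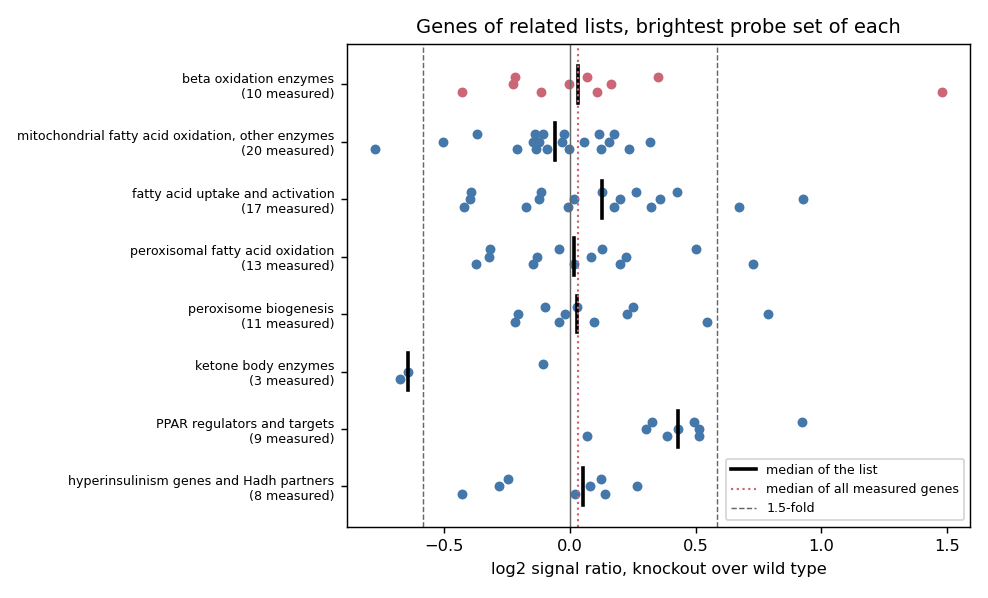
The log2 signal ratio of each measured gene (brightest probe set) in the 10 enzymes and in 7 lists of related genes, with a black bar at each list's median, a dotted line at the median of all measured genes and dashed lines at 1.5-fold. The medians of most lists lie near 0, that of the 9 PPAR regulators and targets at 0.43 and that of the 3 ketone body enzymes at -0.64; with equal array medians Rxrb falls below 0 and the peroxisomal and hyperinsulinism medians change sign.

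The libraries also differed in ways outside the pathway. Of 12 immune markers, 10 were measured, and all 10 were above equality (9 of 10 with equal medians), with a median of 0.87. The neutrophil genes S100a8 and S100a9 were 7.98-fold and 6.44-fold higher, Cd52 was 2.49-fold and H2-Aa 2.01-fold higher, and the macrophage genes C1qa, Lyz2, C1qb and Adgre1 were 1.60-fold to 1.83-fold higher. The other probe sets of C1qb had log2 ratios of 0.10 and 0.88. Csf1r, also a macrophage gene, was close to level, with 308.9 in wild-type islets and 323.7 in knockout islets (log2 0.07). Its other probe sets had -0.08 and -0.01, and it was the marker below equality with equal medians. The summed signal of the list was 1333 in wild-type islets and 3406 in knockout islets, and 1113 and 1839 without S100a8 and S100a9. C1qc and Ptprc were at the floor in the wild type alone. Liver markers had a median of 0.36 over 4 measured (3 above equality) and sums of 394.9 and 534.3; Fgb was 2.54-fold higher and Apoa1 had a log2 ratio of -0.45, and Ahsg, Apoh and Fga were under the floor in both libraries. The duct marker Tspan8 was 2.13-fold higher and Krt19 had -0.19, with sums of 639.7 and 762.9 for the list. The fat markers Adipoq and Cidec did not exceed the floor on either array. The fat list summed to 3296 and 3297, mostly Lpl (log2 -0.02), and to 464.7 and 502.8 without it, with Fabp4 at 0.13 and at 0.67 on its second probe set. The muscle markers Acta1 and Des had -0.13 and 0.11, and Ckm, Myh3 and Tnnt3 did not exceed the floor. The part of these cells in the values of Acaa1a, Pdk4, Acot1, Cd36 and Plin2 was not tested. Markers of islets were present. Ins2, Gcg and Sst had wild-type signals of 5652, 5662 and 5645, the alpha cell factor Irx2 and the delta cell factor Hhex were each 1.53-fold higher, and Ttr had a log2 ratio of 0.02. Acinar markers summed to 36601 and 38260, with Cela3b at -0.03 and Ctrb1 at 0.02. The signals of Ins2, Gcg, Sst, Ttr, Cela3b and Ctrb1 were high on an array with a wild-type maximum of 8132.9. Their ability to show a difference at such signals was not tested. Ratios of 3' to 5' probe set signals, a sign of RNA length, were 1.61 and 2.01 for beta-actin and 1.01 and 0.867 for Gapdh. Their part in the differences between probe sets of 1 gene was not tested.

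The processing of the arrays changed few of these values, though the deposited scale and the other percentile floors left the member ratios as they were. The ratio of Hadh stayed between -0.72 and -0.43 over the 10 settings tried, that of Cpt1a between 0.23 and 0.35, and that of Acaa1a between 1.10 and 1.498 over the 9 in which it had a value. The probe sets shared by Acaa1a and Acaa1b entered none of the settings. The range of Acaa1a therefore cannot address the disagreement in direction between the probe sets annotated to it. Acadvl, Hadha and Hadhb lay on both sides of 0 over the settings. Acaa1a was not at 2-fold without probe sets of the _x_at, _s_at and _a_at types, because both of its own probe sets were then gone.

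**Figure D5:**
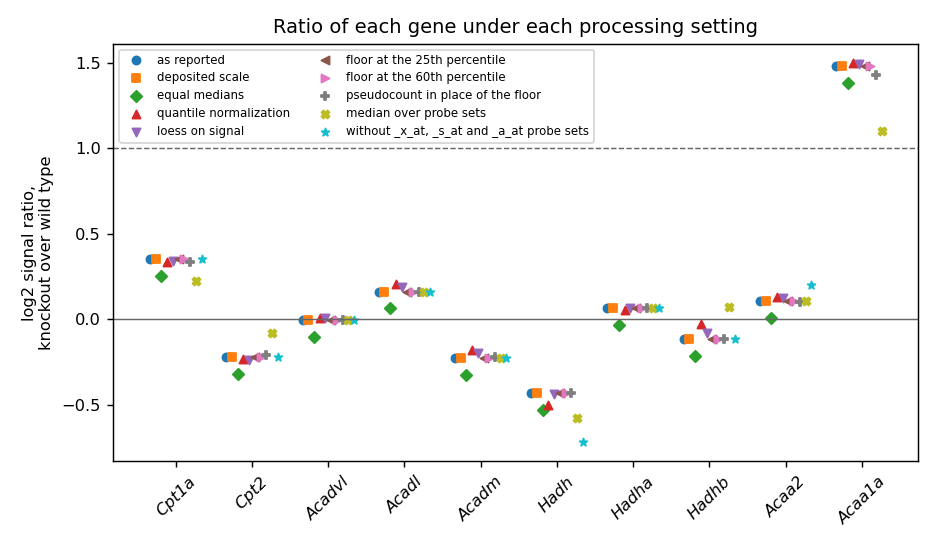
The log2 signal ratio of each enzyme as reported and under 9 other processing settings (symbols). Hadh stays below 0 and Cpt1a and Acaa1a above 0 in each setting that gave a value, while Acadvl, Hadha and Hadhb cross 0. The probe sets shared by Acaa1a and Acaa1b entered none of the settings.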

How the data were processed

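Values are linear array intensities as deposited by the authors, 1 per probe set and array, for 22690 probe sets. The submitters' processing notes name GCOS 1.02 and no other tool; how background was corrected, probes were summarised and detection was called is not given in the sources consulted. The 2% trimmed mean of the deposited values was 150.1 for each array, which shows a common scaling before deposit. Here the knockout array was brought to the wild-type trimmed mean (factor 1.00), values under a floor at the 40th percentile of all signals (39.8) were raised to it, and ratios of knockout to wild type were expressed as log2. Symbols came from the platform annotation: 20380 probe sets had 1 symbol, 691 several, 1555 none here, and 64 were Affymetrix controls. Of the single symbols 20351 matched RefSeq (GRCm38.p6) by gene ID. Each gene was represented by its brightest probe set by mean signal. With no replicates there is no p-value; counts use limits of 2-fold and 1.5-fold. The number of arrays limits the precision.

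The members and lists were chosen with earlier results of these data known. Named genes were all members and, of each other list, the 2 brightest, those at least 1.5-fold apart, and all measured hyperinsulinism genes; other genes are markers, partners or regulators named for their role, or are marked as chosen with their values known. The procedure was tested on simulated data. Alternatives changed the scaling (deposited, equal medians, quantile, loess), the floor (25th or 60th percentile, or a pseudocount of 16) and the probe sets used. Python 3.11.15, numpy 2.4.6, pandas 2.3.3, scipy 1.17.1 and statsmodels 0.14.6 were used.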

Additional observations from a re-analysis of the deposited data

How the results depend on the processing

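No paired analysis was possible because each genotype has 1 array and the labels give no replicate numbers; for the same reason no replicate could be left out. Among the alternatives, the deposited scale and the 25th and 60th percentile floors could hardly change the members' ratios, so their values count little as agreement. Of 27 values of the members' counts and median under the 9 alternatives, 26 stayed within 1.5 times the count or 1 SD of probe set disagreement of the value reported. The exception was the count of members at least 2-fold higher, which was 0 without probe sets of the _x_at, _s_at and _a_at types, since Acaa1a then had none left. The 1.5-fold counts were not among these values. Without those types they also changed, to 0 higher and 1 lower of 9 measured members. Of 152 values of single genes and other lists, 3 moved by more than that SD: Hadh to -0.72 without those probe set types, and Acaa1a to 1.10 and the ketone body median to -0.39 with the median over probe sets. The members' median ranged from -0.07 to 0.07. Over all measured genes, the split at 2-fold was 42 higher and 53 lower as reported, 25 and 69 with equal medians, 27 and 59 with quantile normalization and 27 and 60 with loess. It was 81 and 80 with the lower floor, 13 and 28 with the higher floor, 88 and 78 with a pseudocount, 31 and 45 with the median over probe sets and 27 and 35 without the 3 probe set types. At 1.5-fold it was 341 and 240 as reported and 214 and 362, 264 and 293, and 256 and 296 with equal medians, quantile and loess. The median of all genes was 0.03 as reported and -0.06 with equal medians. Signals near the floor limit what can be said of the dim probe sets of Hadh, Cpt1a, Cpt2 and Acadl. The marker sums without their brightest or most different genes, and the SD of the brightest 25% of genes as a yardstick, were chosen after seeing the data.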
